A study of Mus musculus with 4 samples.

Results

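TRBV5 is 1 of the V segments of the mouse T-cell receptor beta locus, listed as Tcrb-V1 among its older names. Its members here were chosen from the deposited receptor tables as contigs marked productive, of chain TRB and of V segment TRBV5. A contig is a receptor transcript rebuilt from the reads of 1 cell barcode. The rule found 25 such contigs among 235 productive TRB contigs, 8 in the control library and 17 in the library from mice given all-trans retinoic acid (ATRA). They lay in 8 and 16 cells, since 1 ATRA cell held a pair of TRBV5 chains. TRBV5 was singled out because it was among the most used V segments of both libraries, so its shares are given as a description with no test.

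The study concerned retinoic acid signaling in gliomas with mutant IDH. Mice of strain C57BL6 received 50000 neurosphere cells in the striatum at 6 weeks of age, and then ATRA at 10 mg/kg or control, into the peritoneum every other day until signs of brain disease. What the control mice were given, and how many mice stand behind each library, are not given in the sources used here. Tumors and nearby normal brain were dissociated, CD45-positive cells (CD45 marks white blood cells) were sorted, and their transcripts were sequenced in droplets from the 5-prime end. There was 1 receptor library per treatment, so no value has a replicate, no treatment effect was tested, and intervals cover counting error only. Intervals over cells treat each cell as independent. Cells of 1 clone are not, so these intervals are too narrow where a clone makes up much of a count. Expression of other genes was not analysed here, so the sort and the T-cell identity were checked only by the receptor itself. Cells with a productive TRA or TRB numbered 74 in the control and 160 in the ATRA library, with 382 and 1841 unique molecular identifiers (UMIs, each marking 1 captured RNA molecule). No barcode was found in both libraries (0 shared).

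The beta chain of a T-cell receptor is made by joining 1 V, 1 D and 1 J segment, with bases trimmed and added at random at the joints. The joint forms CDR3, the loop that mostly touches the peptide held by an MHC molecule, while the V segment alone encodes the other loops of the chain. Cells that descend from 1 parent carry the same joint, so an identical nucleotide sequence in several cells is the usual mark of a clone. In GRCm38, TRBV5 lies on chromosome 6 at 41062359 to 41062803, between Trbv4 and the pseudogene Trbv6, and about 471 kb before the first joining segment, Trbj1-1.

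The chains on which the results turn are printed here as the CDR3 nucleotides of the deposited tables, 5′ to 3′. They are the TRBV5 chains found in more than 1 cell and all TRBV5 chains that share a 4-residue word, glycine-arginine-threonine-glycine (GRTG), whose 12 bases are in capitals.
Control, TRBJ2-2, 2 cells: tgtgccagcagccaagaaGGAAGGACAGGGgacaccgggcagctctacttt
Control, TRBJ1-1, 1 cell: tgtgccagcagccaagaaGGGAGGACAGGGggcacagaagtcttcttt
Control, TRBJ1-1, 1 cell, the other chain of this segment: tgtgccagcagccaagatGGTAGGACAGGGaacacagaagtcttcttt
ATRA, TRBJ2-1, 2 cells: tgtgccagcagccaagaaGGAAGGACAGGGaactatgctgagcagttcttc
ATRA, TRBJ2-4, 8 cells: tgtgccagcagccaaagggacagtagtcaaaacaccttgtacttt

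TRBV5 was used by similar shares of cells in both libraries. In control 8 of 70 TRB cells had it, 11.4% (exact 95% interval 5.07 to 21.3). In ATRA 16 of 148 had it, 10.8% (6.31 to 17). The ratio of ATRA to control was 0.946 with an interval of 0.382 to 2.55, so a difference of more than 2-fold in either direction lies within the counting error. Among the 8 TRBV segments with at least 10 cells, 25% differed at least 2-fold between the libraries, and TRBV5 was not among them. By number of cells TRBV5 had rank 4 in control, tied with TRBV19, and rank 3 in ATRA, tied with TRBV29. The segments whose control and ATRA shares lay nearest to those of TRBV5 were TRBV29, with 14.3% and 10.8%, and TRBV19, with 11.4% and 7.43%. Their distances from TRBV5, over both shares, were 2.86 and 3.38 percentage points. This likeness rests on 2 libraries, and the intervals of the 3 segments overlapped in both.

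**Figure D1:**
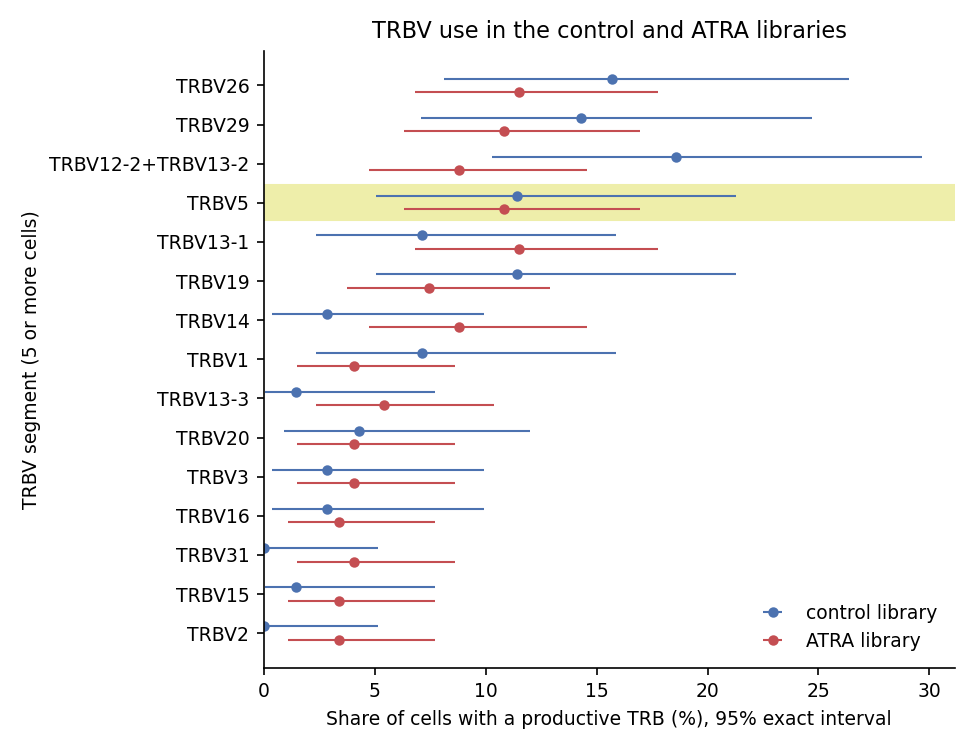
Share of cells with a productive TRB (x axis, percent) that used each TRBV segment with 5 or more cells (y axis), in the control (blue) and ATRA (red) libraries, with exact 95% intervals. The TRBV5 row is shaded, and its points, 11.4% and 10.8%, lie close together within wide intervals.

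Counted over distinct chains, which takes each clone once, the ATRA share was lower. A distinct chain is 1 combination of V, J and CDR3 nucleotides. TRBV5 made 7 of 59 distinct control chains, 11.9% (4.91 to 22.9), and 9 of 113 distinct ATRA chains, 7.96% (3.71 to 14.6), a ratio of 0.671 (0.222 to 2.12). Over the deposited clonotypes with a TRB it made 7 of 62 and 10 of 118, 11.3% and 8.47%. All of these differences were within the counting intervals. TRBV5 chains held 25 of 308 TRB UMIs in control, 8.12%, and 138 of 1243 in ATRA, 11.1%.

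Most TRBV5 clonotypes were single cells, and in each library only 1 was expanded, that is, found in 2 or more cells under its deposited number. The expanded control clonotype held 2 of the 8 TRBV5 cells, 25.0% (3.19 to 65.1), and the expanded ATRA clonotype 7 of the 16, 43.8% (19.8 to 70.1). Among cells without TRBV5, expanded clonotypes held 12 of 62 in control, 19.4% (10.4 to 31.4). In ATRA they held 40 of 132, 30.3% (22.6 to 38.9). The intervals overlapped in both libraries. Among single segments, expanded clonotypes held 2 of 11 control and 8 of 17 ATRA cells for TRBV26. They held 6 of 10 and 6 of 16 for TRBV29, and 0 of 5 and 2 of 17 for TRBV13-1. For ATRA TRBV5 cells, the share expected in a random draw of 70 of the 148 TRB cells, the control number, was 42.9%. Each TRBV5 value rests on 1 clonotype. Leaving out the largest TRBV5 clonotype of each library therefore had to leave 0 of 9 ATRA cells and 0 of 6 control cells in an expanded one. The control clonotype rests on 1 UMI in each of its cells, and with at least 2 UMIs per chain 0 of 6 control cells were expanded.

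The largest TRBV5 clone joined TRBJ2-4 with a CDR3 of 15 residues. Its 8 cells had 2, 2, 5, 9, 9, 14, 21 and 24 UMIs of this chain, 86 of the 138 TRBV5 UMIs of the ATRA library (62.3%). Its UMIs thus ran from the lowest to the highest of the ATRA TRBV5 chains. In 7 of the cells the alpha chain joined TRAV6-6 and TRAJ39, with 1, 2, 2, 4, 4, 5 and 5 UMIs. The alpha CDR3 was the same to the base in all 7.
TRAV6-6 and TRAJ39, 7 ATRA cells: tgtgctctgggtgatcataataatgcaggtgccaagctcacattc
The eighth cell, with 9 UMIs of the TRBV5 chain, has another deposited clonotype number. It held TRAV3-4 with TRAJ57 at 4 UMIs, and a second productive TRB of TRBV13-1 and TRBJ2-3 at 6 UMIs. With clonotypes defined by TRB nucleotides alone, this cell and the 2 cells of the TRBJ2-1 chain joined the expanded ones, which then held 10 of 16 ATRA TRBV5 cells, 62.5%, while control stayed at 2 of 8. The same values were found with amino acids in place of nucleotides, since no TRBV5 CDR3 (0 of 16) was encoded by more than 1 nucleotide sequence.

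**Figure D2:**
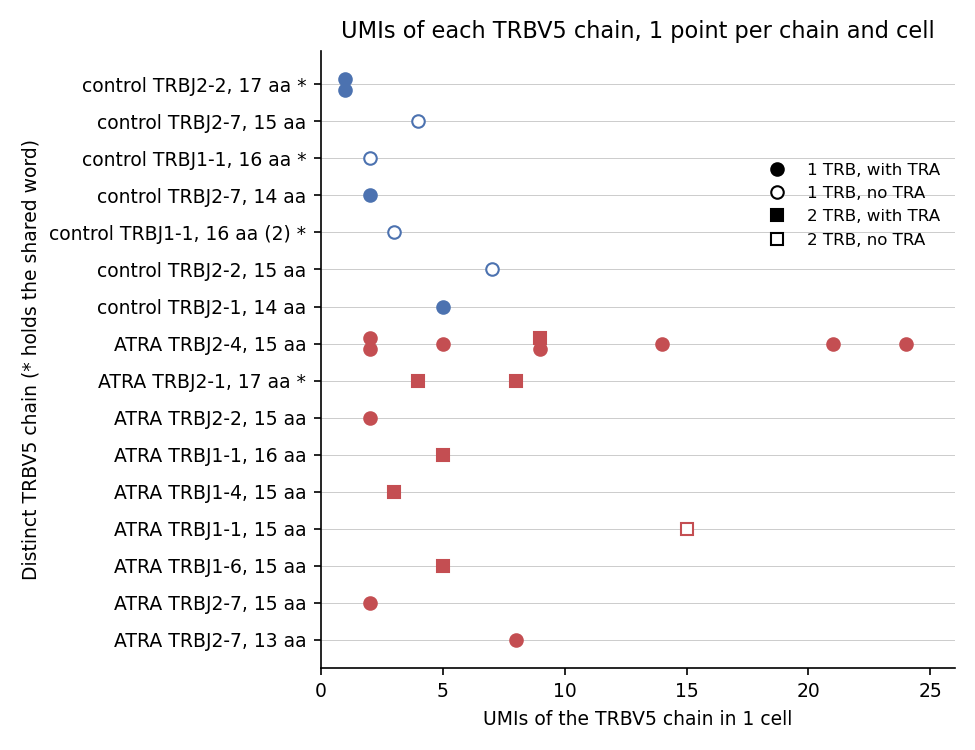
UMIs of each TRBV5 chain in each cell (x axis), with 1 line per distinct chain (y axis, named by library, TRBJ segment and CDR3 length; (2) marks a second chain of the same description). Filled points have a TRA and open points none, squares mark cells with a second TRB, and an asterisk marks chains with GRTG. The TRBJ2-4 chain spreads over 8 cells from 2 to 24 UMIs, all 6 cells with squares are from ATRA, and 1 of these cells gives a point on each of 2 lines.

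Control TRBV5 chains had fewer UMIs at the median than ATRA ones. TRBV5 chains had 1, 1, 2, 2, 3, 4, 5 and 7 UMIs in control, with a median of 2.5, against a median of 3.5 (range 1 to 25) over the 66 other control TRB chains. In ATRA they had a median of 5 UMIs (range 2 to 24, n = 17), against 6 (range 1 to 32) over 144 others. The ranges overlapped in both comparisons. Among the other most used single TRBV segments, the ATRA median was 8 UMIs for TRBV26 and for TRBV13-1 and 5 for TRBV29. The joint entry TRBV12-2+TRBV13-2, with 26 cells over both libraries, names no single segment and was not among those compared. A single UMI supported 2 of 8 control TRBV5 chains, 25.0%, and 3 of the 66 others, 4.55%. In ATRA it supported 0 of 17 and 7 of 144. The ATRA chains with TRBJ2-4 had a median of 9 UMIs and the 9 other ATRA TRBV5 chains a median of 5, with 2, 2, 3, 4, 5, 5, 8, 8 and 15. Reads per UMI were 16787 over control TRBV5 chains and 3683 over ATRA ones, so every molecule was read many times and the UMI count, not the read count, limits precision.

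J use among TRBV5 chains differed in ATRA by whether cells or distinct chains were counted. In ATRA 8 of 16 TRBV5 cells used TRBJ2-4, 50.0% (24.7 to 75.3), against 5 of 137 cells with another TRB, 3.65% (1.20 to 8.31). All 8 carried the 1 chain described above, so they are not independent and the interval over cells is too narrow. Over distinct chains TRBJ2-4 made 1 of 9, 11.1%, against 5 of 104, 4.81%. The remaining ATRA TRBV5 cells used TRBJ1-1, TRBJ2-1 and TRBJ2-7 in 2 cells each and TRBJ1-4, TRBJ1-6 and TRBJ2-2 in 1 cell each. In control TRBJ2-2 was found in 3 of 8 TRBV5 cells, 37.5% (8.52 to 75.5), against 4 of 62 cells with another TRB, 6.45% (1.79 to 15.7). These were 2 of 7 distinct chains against 4 of 52, 28.6% against 7.69%. TRBJ1-1 and TRBJ2-7 were each found in 2 control TRBV5 cells and TRBJ2-1 in 1.

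TRBJ2-1, the most used joining segment among other TRB chains, was found beside TRBV5 in 1 of 8 control and 2 of 16 ATRA TRBV5 cells, 12.5% in each. Other TRB cells used it in 32.3% of 62 in control (20.9 to 45.3) and 31.4% of 137 in ATRA (23.7 to 39.9). The TRBV5 intervals, 0.316 to 52.7 and 1.55 to 38.3, include those values, so a difference was not detectable at these numbers of cells. The TRBJ2 cluster as a whole made 5 of 7 distinct control TRBV5 chains and 5 of 9 distinct ATRA ones, 71.4% and 55.6%, against 69.2% and 60.6% of other distinct chains. Over cells it made 6 of 8 and 13 of 16, 75% and 81.2%, against 71.0% of 62 and 61.3% of 137 cells with another TRB. The ATRA difference thus changed direction between chains and cells, and 8 of its 13 cells were of the TRBJ2-4 clone. No TRBV5 cell used TRBJ1-2, TRBJ1-3, TRBJ1-5, TRBJ2-3 or TRBJ2-5 (0 of 24). Among cells with another TRB, each of these made 1.61% to 9.68% in control and 2.92% to 7.30% in ATRA.

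**Figure D3:**
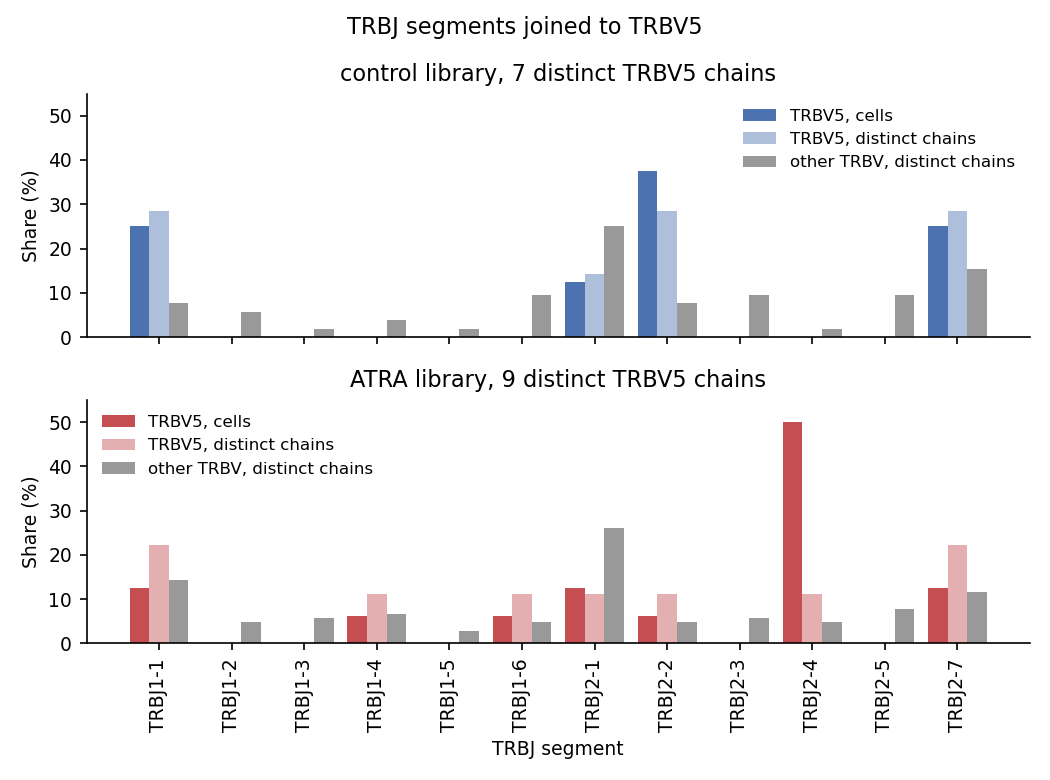
Share (y axis, percent) of TRBV5 cells, of distinct TRBV5 chains and of distinct chains of other TRBV segments that used each TRBJ segment (x axis), in the control library (top) and the ATRA library (bottom). The TRBJ2-4 bar of ATRA cells stands at 50.0% and falls to 11.1% when each distinct chain is counted once.

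The mean CDR3 of TRBV5 chains was more than 1 residue longer than that of other beta chains in both libraries, a difference given here without a test. Over distinct chains they averaged 15.3 residues in control (SD 1.11, n = 7 chains, range 14 to 17) and 15.1 in ATRA (SD 1.05, n = 9 chains, range 13 to 17). Other TRB chains averaged 13.9 (SD 1.25, n = 52 chains) and 13.8 (SD 1.29, n = 104 chains). A CDR3 of 15 or more residues was found in 5 of 7 and 8 of 9 TRBV5 chains, 71.4% and 88.9%, against 38.5% and 31.7% of other chains. The other chains were not alike in this share. It was 55.6% and 71.4% for TRBV26, 0% and 20.0% for TRBV29, and 25.0% and 16.7% for TRBV13-1. The difference in means, 1.36 residues in control and 1.32 in ATRA, was of the size of the SD among chains. The distributions overlapped in both libraries. Without the chains that hold GRTG the difference was 0.577 in control and 1.09 in ATRA, and without cells with extra chains it was 1.35 and 0.599. Among the other most used single TRBV segments, TRBV26 averaged 14.3 and 14.7 residues, TRBV29 13.6 in both libraries, and TRBV13-1 13.0 and 13.5.

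**Figure D4:**
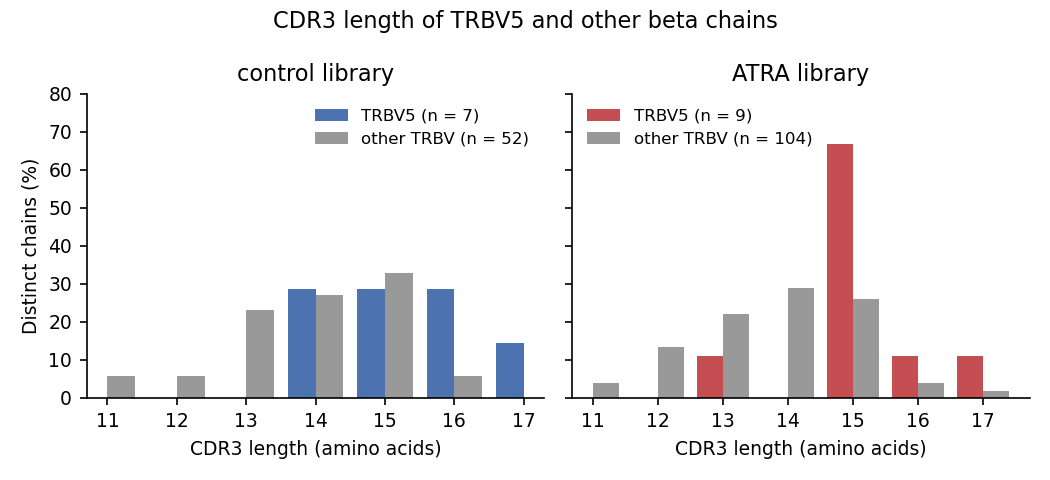
Distribution of CDR3 length (x axis, amino acids) over distinct TRBV5 chains (colour) and distinct chains of other TRBV segments (grey), as percent of each (y axis), in the control library (left) and the ATRA library (right). TRBV5 chains lie at 14 to 17 residues in control and mostly at 15 in ATRA, to the right of the centre of the grey bars in both.

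All 16 distinct TRBV5 chains opened with the same 11 bases, tgtgccagcag, as did 50.3% of 153 distinct chains of other segments. The next bases set TRBV5 apart, since the first 14, tgtgccagcagcca, were shared by 14 of 16 TRBV5 chains and by 3 of 153 others, 1.96%. The fifth residue was glutamine in 12 of 16 distinct TRBV5 CDR3s, 75%, and in 4 of 137 of other segments, 2.92%. The start of CDR3 is encoded by the V segment in any beta chain, so these shared bases describe the segment by which the members were selected. Past this start the CDR3s differed, with 16 distinct amino acid sequences in the 2 libraries, 0 found in both, and 0 also found with another V segment. Of 33 pairs of equal length none (0) differed by 1 substitution and 1 pair differed by 2.

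That pair and 2 further chains shared the word GRTG. It was found in 4 of 16 distinct TRBV5 CDR3s and in 0 of 137 CDR3s of other TRBV segments, which allows up to 2.19%. In all 4 it began at residue 7 of the CDR3, after serine, glutamine and an acidic residue, glutamate in 3 of them and aspartate in 1. The 4 chains joined 3 TRBJ segments and were found in both libraries. In control 3 of 7 distinct chains held it, in 4 of 8 TRBV5 cells, 50.0% (15.7 to 84.3). In ATRA 1 of 9 distinct chains held it, in 2 of 16 cells, 12.5% (1.55 to 38.3). The intervals overlapped.

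The arginine, threonine and second glycine were encoded by the same 9 bases, AGGACAGGG, in all 4 chains, while the first glycine used 3 different codons. These 9 bases occurred in 1 of 153 distinct chains of other segments, 0.654%, a TRBV31 chain of the ATRA library. The 4 control cells with GRTG had 1, 1, 2 and 3 UMIs of the chain, and the 2 ATRA cells 4 and 8. With at least 2 UMIs per chain GRTG was left in 2 of 6 control TRBV5 cells, and with at least 3 in 1 of 4. Both ATRA cells also held a second productive TRB, and without cells with extra chains 0 of 10 ATRA TRBV5 cells had GRTG. The word and its 9 bases were noticed among the members, so their counts in other segments are not an independent test. Other 4-residue words in 2 or more TRBV5 CDR3s were QEGR, EGRT and RTGN, which overlap GRTG, and PGQG, in 2 ATRA chains and also in 2 of the 137 other CDR3s. Both TRBV5 chains with PGQG held GGACAGGG, all but the first of the 9 bases, in another reading frame. The stretch is thus not limited to the chains with GRTG. Whether it came from a D segment was not tested.

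Alpha partners were known for 4 of 8 control TRBV5 cells, 50.0% (15.7 to 84.3), and 15 of 16 ATRA ones, 93.8% (69.8 to 99.8). In TRB cells without TRBV5 a productive TRA was found in 41.9% of 62 (29.5 to 55.2) and 80.3% of 132 (72.5 to 86.7). The order of the libraries was thus the same in both sets of cells. Control TRB chains other than TRBV5 had fewer UMIs than ATRA ones, with medians of 3.5 and 6. They had more reads per UMI, 10953 against 4837. Whether either bears on the TRA shares was not tested. No combination of TRAV and TRAJ was found beside TRBV5 in both libraries.

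In ATRA, TRBV5 was mostly paired with the TRAV6 family, of which 9 of 15 paired TRBV5 cells had a member, 60.0% (32.3 to 83.7). A family here takes in the copies of a segment whose names differ by D, N or the part after the hyphen. Other paired ATRA cells had one in 17 of 106, 16% (9.63 to 24.4). These 9 cells held 3 distinct alpha chains, the TRAV6-6 chain of the 7-cell clone, a second TRAV6-6 chain and a TRAV6-5 chain with TRAJ48. The share was 2 of 8, 25.0%, without the largest TRBV5 clonotype, and 9 of 10, 90.0%, without cells with extra chains. Over distinct alpha chains it was 3 of 9, 33.3%, against 19.8% of 81 in other cells. A productive TRAV6-6 chain was found in 9 cells, all from ATRA, and 8 of them had a productive TRBV5 chain. In the control library the TRAV6 family was found in 0 of 4 paired TRBV5 cells, which allows up to 75% (exact limit 60.2%), and in 0 of 26 others.

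In control, 3 of 4 paired TRBV5 cells used TRAV7-3, 75% (19.4 to 99.4), against 2 of 26 other paired cells, 7.69% (0.946 to 25.1). Over distinct alpha chains TRAV7-3 made 2 of 3, against 2 of 18 in other cells. Of the 3 cells, the 2 with GRTG and TRBJ2-2, which are of 1 clonotype, joined it to TRAJ27 at 3 UMIs each. The third joined it to TRAJ30 at 2 UMIs beside TRBJ2-1. The remaining paired control cell used TRAV5D-4 with TRAJ57 at 1 UMI. TRAV7-3 was found in 0 of 15 paired ATRA TRBV5 cells, which allows up to 20.0%, and in 0 of 106 others. TRAV5D-4 was found beside TRBV5 in both libraries, in 1 control and 2 ATRA cells, each time with a different J segment (TRAJ57, TRAJ18 and TRAJ37). TRAJ57 likewise recurred in 1 control and 2 ATRA cells with 3 TRAV segments. The receptors of invariant natural killer T cells and of mucosal-associated invariant T cells were defined by their alpha chains. Both were found in 0 of 4 and 0 of 15 paired TRBV5 cells, which allows up to 75% and 20.0%. They were also found in 0 of 26 and 0 of 106 other paired cells, so their absence was not particular to TRBV5.

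**Figure D5:**
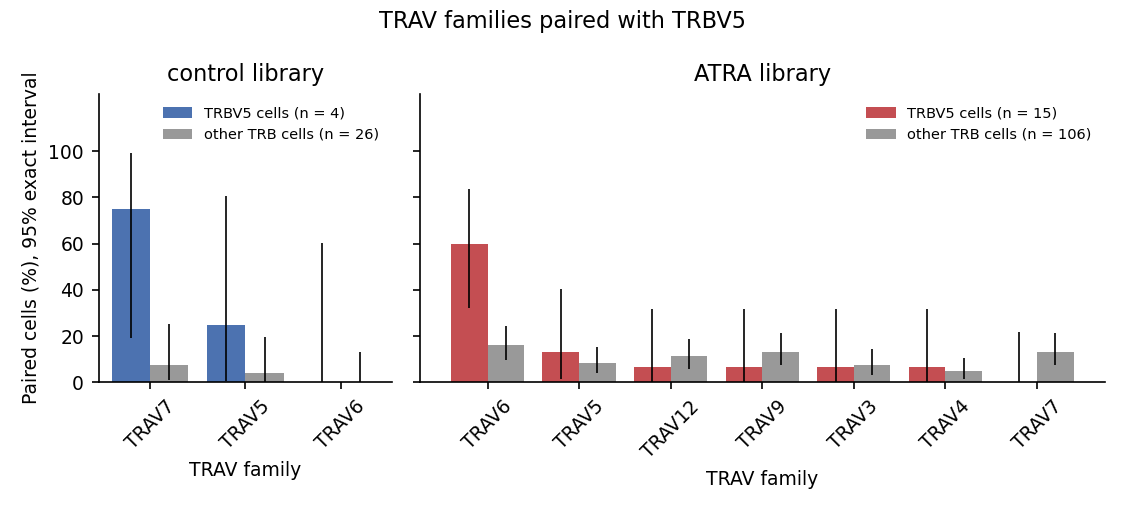
Share of paired cells (y axis, percent, with exact 95% intervals) whose alpha chain used each TRAV family (x axis), for TRBV5 cells (colour) and TRB cells without TRBV5 (grey), in the control library (left, 4 and 26 cells) and the ATRA library (right, 15 and 106 cells). The TRAV7 bar of control stands at 75% and the TRAV6 bar of ATRA at 60.0%, both above the grey bars beside them.

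Several TRBV5 cells of the ATRA library held a second productive TRB. A mature T cell usually shows 1 productive beta chain, because joining of the second allele is mostly blocked after the first succeeds. Of 16 ATRA TRBV5 cells 6 held a second TRB, 37.5% (15.2 to 64.6), against 7 of 132 cells without TRBV5, 5.30% (2.16 to 10.6). A cell with more than 1 TRB can be counted under each of its V segments, which raises this share for any segment. Counted the same way it was 2 of 17 for TRBV26, 11.8%, 0 of 16 for TRBV29, and 4 of 17 for TRBV13-1, 23.5%. Of those 4 TRBV13-1 cells, 3 were TRBV5 cells already counted, so these shares are not independent. In control it was 0 of 8 TRBV5 cells, which allows up to 37.5%, and 4 of 62 others, 6.45%.

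Both chains of these 6 cells had several UMIs. TRBV5 had 4, 5, 5, 8, 9 and 15, and the second chain had 3 to 9. In 3 of the 6 cells the second TRB used TRBV13-1, in 1 it was another TRBV5 chain, joined to TRBJ1-4, and in the rest it used TRBV14 or TRBV12-1. With at least 3 UMIs per chain 6 of 12 ATRA TRBV5 cells still had a second TRB. Of the 6 cells, 5 had 1 productive TRA and 1 had none (0). Both cells with the GRTG and TRBJ2-1 chain were among them, with different alpha chains, TRAV9D-1 with TRAJ34 in 1 and TRAV5D-4 with TRAJ37 in the other. No doublet caller was run, and whether these barcodes held more than 1 cell was not tested. Without cells with extra chains the TRBV5 share of cells was 12.1% in control and 7.41% in ATRA, and the ratio was 0.611 (0.217 to 1.78).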

How the data were processed

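Receptor libraries of CD45-sorted cells were deposited as 1 contig table per treatment. Per the submitters' processing notes, bcl2fastq 2.20.0, Cell Ranger 3.1.0 and build GRCm38 were used. The deposited tables give UMI counts and read counts for each contig, not normalized, and contig lengths in bases, per the file headers; the steps behind the cell calls are not given in the sources used here. No contig was marked as outside a cell or of low confidence (0 of 655). Productive TRA and TRB contigs were kept at any number of UMIs. Shares carry exact Clopper-Pearson 95% intervals and ratios exact conditional ones (scipy 1.17.1), which cover counting error only. For a count of 0 the upper limit printed is 3 counts of the total. The exact limit, drawn in the figures, differs from it, at 60.2% for 0 of 4 and 21.8% for 0 of 15. The code for the ratio intervals was tested on simulated counts, and the share intervals were not tested in this way. Segment coordinates came from RefSeq annotation of GRCm38.p6, in which all 29 segments looked up were matched by symbol. CDR3 words of 4 residues were taken after the first 4 and before the last 4 residues. Named chains were those in at least 2 cells or within 1 substitution of another; the chains with GRTG were added after their values were seen. The plan was to name every TRBJ used by TRBV5, and TRAV or TRAJ segments in at least 2 TRBV5 cells. Other alpha segments, found in 1 TRBV5 cell, were named where the receptor of that cell is described. The alternatives required 2 or 3 UMIs for each chain or a paired TRA, or left out cells with extra chains (over 1 productive TRB or over 2 productive TRA) or the largest TRBV5 clonotype, or defined clonotypes otherwise. The members and lists were chosen with earlier results of these data known. A planned count of germline and added bases in each junction was not run, as no genome sequence was used here.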

Additional observations from a re-analysis of the deposited data

Results flagged for a closer look

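TRBV5 contigs marked nonproductive lie outside the comparisons made so far. They were found in 5 of 160 ATRA cells, 3.12% (exact 95% interval 1.02 to 7.14), and in 1 of 74 control cells, 1.35% (0.0342 to 7.30). The ATRA share was higher than the control share, within the counting error. Nonproductive contigs of other TRBV segments were found in 16.9% of ATRA and 14.9% of control cells.

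Of these contigs, 3 in ATRA and 1 in control had under 10 reads. Such low read numbers were also found in nonproductive contigs of other TRBV segments, 8 of 27 in ATRA and 5 of 13 in control. Among productive TRA and TRB contigs they were found in 1 of 308 and 3 of 108. The ATRA ones had 7 reads and 6 UMIs, 4 reads and 3 UMIs, and 5 reads and 5 UMIs, and the control one 1 read and 1 UMI. In the same order they were 308, 339, 337 and 377 bases long, shorter than every productive TRBV5 contig (516 to 528 bases). Their CDR3s, of 15 or 16 residues, were in frame. Why they were marked nonproductive was not tested. The first 2 ATRA ones carried the CDR3 nucleotides of the 8-cell TRBJ2-4 chain, in cells whose own productive beta chains used TRBV2 and TRBV14. The control one carried a GRTG and TRBJ1-1 chain that was productive in 1 other cell, and its own cell used TRBV1 with TRAV7-3. The remaining ATRA one, in a cell whose productive beta chain used TRBV13-2, also held GRTG, with TRBJ1-4, a joining segment that no productive GRTG chain used.
ATRA, TRBJ1-4, nonproductive: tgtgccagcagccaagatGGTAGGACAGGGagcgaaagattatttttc
The capitals mark the bases of GRTG. How molecules with so few reads came to these barcodes was not tested.

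A nonproductive alpha chain of TRAV12D-2 and TRAJ16 was found in 5 of the 7 cells of the TRAV6-6 and TRAJ39 clonotype, with 2, 2, 4, 7 and 8 UMIs. Among 234 cells of both libraries it occurred with the same nucleotides in 2 others. One of them, with 3 UMIs, was the cell that carried the same TRBV5 and TRBJ2-4 chain beside TRAV3-4 and TRBV13-1. The other had 1 UMI and no TRBV5 chain.
TRAV12D-2 and TRAJ16, nonproductive: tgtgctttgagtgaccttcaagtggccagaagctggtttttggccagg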

How the results depend on the processing

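Of 104 values recomputed under the alternatives, 92 stayed within the counting interval of the reported value, or within 1 SD for CDR3 lengths and UMIs, and 12 did not. The SD is that among single chains, a wide limit. Length differences of 0.577 in control, without GRTG chains, and 0.599 in ATRA, without extra chains, lay within it. Some alternatives could not change a value, such as ATRA CDR3 length without the largest clonotype. The tally is thus not a measure of robustness. At 2 and at 3 UMIs per chain the control share of TRBV5 cells in expanded clonotypes was 0, and the TRAV7 share at 2 UMIs was 100% of 1 paired control cell. Without the largest TRBV5 clonotypes the expanded share was 0 in both libraries, which had to follow since each had only 1 expanded TRBV5 clonotype. ATRA TRBJ2-4 use was then 11.1% (also 11.1% over distinct chains) and the ATRA TRAV6 share 25.0%. Without cells with extra chains the ATRA TRAV6 share was 90.0%, the ATRA GRTG share 0, and TRBV5 made 3.81% of ATRA clonotypes. Allowing 2 substitutions in place of 1 gave 1 pair of alike CDR3s. The ratio of ATRA to control lay between 0.611 and 1.23, on both sides of 1, with 1 inside each interval. Chosen after seeing the data were all alternatives for GRTG, second TRB chains and length differences, those for J use without the largest clonotypes, and those for alpha families without the largest clonotypes or without cells with extra chains. No paired analysis was possible because each treatment had 1 library. The 8 control TRBV5 cells limit each comparison that uses the control library.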

Other observations

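The second TRAV6-6 receptor of the ATRA library was found in 2 cells when contigs marked nonproductive are counted. In 1 cell TRAV6-6 with TRAJ22 (4 UMIs) stood beside a productive TRBV5 and TRBJ2-2 chain at 2 UMIs. In the other the same alpha chain (6 UMIs) stood beside a TRBV5 contig with the same CDR3 nucleotides, marked nonproductive, at 1 UMI and 5155 reads. With it, all 9 cells with a productive TRAV6-6 had a TRBV5 contig. The deposited clonotype numbers of the 2 cells differ, so neither counts as expanded in the values above.
TRBV5 and TRBJ2-2, ATRA: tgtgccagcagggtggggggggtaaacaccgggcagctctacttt
TRAV6-6 and TRAJ22, ATRA: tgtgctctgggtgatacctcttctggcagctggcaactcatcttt

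The productive TRBV5 contigs were nearly all of 1 length once the CDR3 was set aside. Contig length less CDR3 length was 477 bases in 8 of 8 control and 16 of 17 ATRA contigs, and 481 bases in the remaining one.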
